A study of Mus musculus with 6 samples.

Results

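Blood stem cells stay in bone marrow, leave it and return to it through a small set of surface receptors and their ligands. The 10 genes described here are Cxcr4 and Ackr3, which bind the chemokine CXCL12, the receptors Tek and Tie1 with the angiopoietin genes Angpt1 and Angpt2, the guidance receptor Robo4, the lipid receptors S1pr1 and Ptger4, and Casr, the calcium-sensing receptor. They were picked by gene symbol. Each was represented by 1 probe set, so that 10 of 19938 genes with a probe set of their own are described. CXCR4 holds stem cells near the stromal cells that make CXCL12, and ANGPT1 bound to TEK is known for favouring quiescence and adhesion. S1PR1 draws cells towards blood and lymph, where sphingosine 1-phosphate is high.

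The 6 arrays came from C57BL/6 marrow, sorted for long-term hematopoietic stem cells (LT-HSCs), all females 8 to 12 weeks old. The Lxn-/- group had 3 pools from mice lacking exons 2 to 4 of the latexin gene and latexin protein, and the WT group had 3 pools from mice with intact latexin. Latexin inhibits metallocarboxypeptidases, and the series asks which genes differ in these stem cells after its deletion. Each pool held nearly 100000 sorted cells of 10 to 20 mice and gave 1 array, so a p-value here measures the spread between pools and no value belongs to 1 animal. The sort took marrow cells without lineage markers or CD34, with Sca1 and c-Kit, and without a marker written in the labels as Flt2. All values below are log2 expression from robust multi-array averaging (RMA), and differences are Lxn-/- minus WT. In pooled cells, fewer cells of a type and less RNA per cell cannot be told apart.

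Array medians lay between 7.86 and 7.91 in Lxn-/- and between 7.77 and 7.90 in WT. The signal of Lxn was 8.66, 8.78 and 8.78 in Lxn-/- pools, against 8.99, 9.09 and 9.55 in WT pools, and nothing in the sources used here says whether its probes lie in the deleted exons. No probe set of 23410 with a gene symbol passed an adjusted p of 0.05 in limma (0.0%), and 914 (3.9%) had an unadjusted p under 0.05. All 19 measured genes of a list of stem cell genes exceeded the level that odorant and pheromone receptor genes rarely reach, which is the 95th percentile of 1205 such probe sets, at 6.93 for means over 6 arrays. That list includes the gene of a surface protein gated against, Cd34, with signals of 13.01 to 13.30 in Lxn-/- and 13.08 to 13.15 in WT, and Flt3, a receptor of multipotent progenitors, with 11.59 to 12.20 in Lxn-/- and 11.77 to 12.05 in WT.

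Of the 10 genes, 7 were above that odorant receptor level on all 6 arrays, namely Cxcr4, Tek, Tie1, Angpt1, Robo4, S1pr1 and Ptger4. None of the 10 passed the test over all probe sets, with adjusted p from 0.993 to 0.999 in limma. By size, 6 genes were higher and 4 lower in Lxn-/-, with a median of 0.046, beside a median of -0.013 over all 19938 genes, of which 44.0% were higher. The median of the 10 genes was -0.012 without Lxn-/- replicate 3, and it was 0.00091 with arrays set to a common median and 0.00015 with array weights. The genotypes stood apart, with no overlap of their 3 values, for 2 of the 10 genes (20.0%), Angpt2 and Casr, beside 8.98% of all named probe sets (3.6% higher, as Angpt2 was, and 5.38% lower, as Casr was). Among probe sets whose mean did not exceed the odorant receptor level, where both genes lie, the share without overlap was 11.0%, and above that level it was 8.1%. In limma these same 2 genes had an unadjusted p under 0.05, where the share of all named probe sets was 1.47% on the higher side, that of Angpt2, and 2.43% on the lower side, that of Casr.

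**Figure D1:**
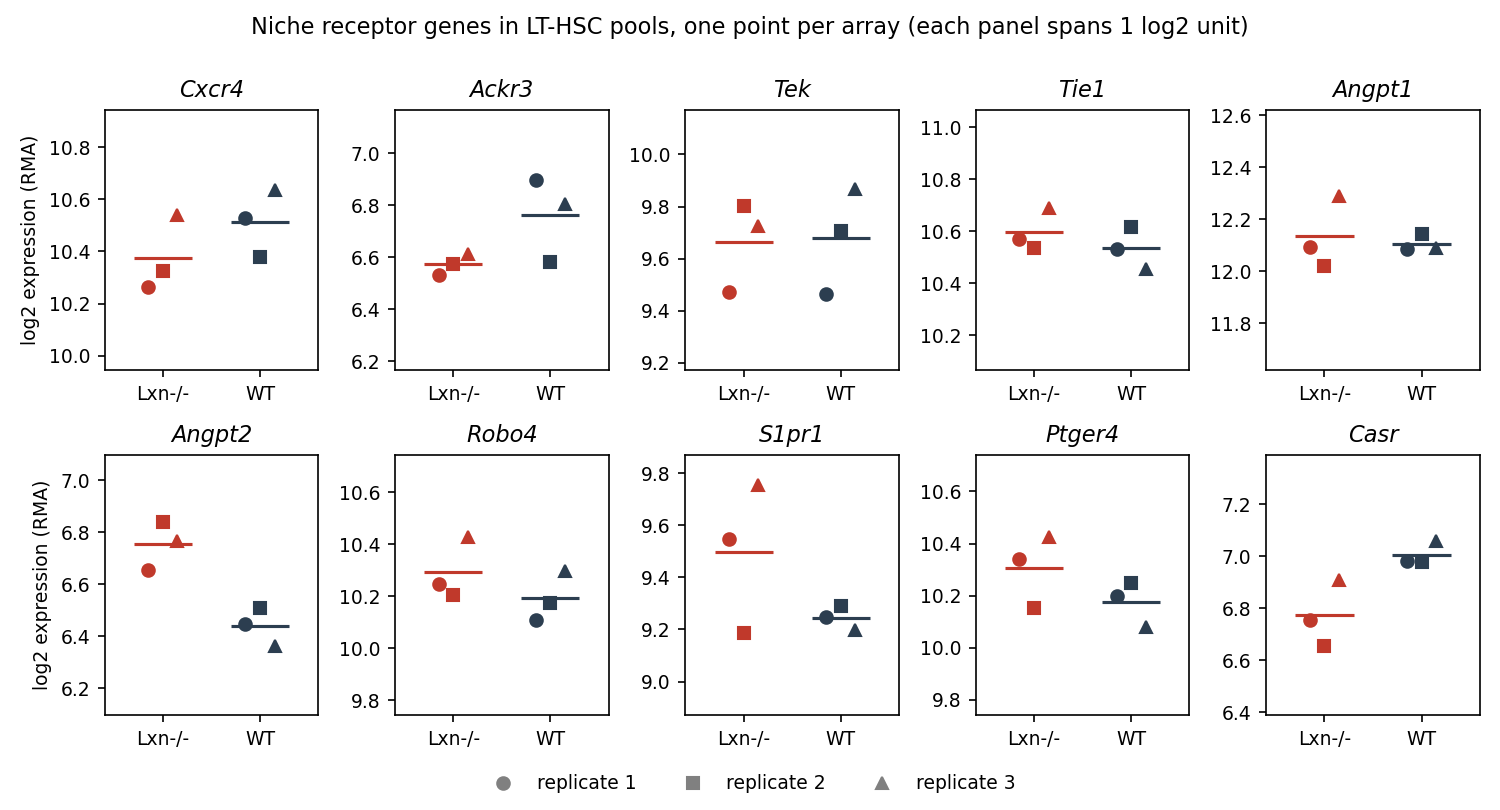
Log2 expression of the 10 genes in each of the 6 arrays, with Lxn-/- pools left and WT pools right, 1 point per array and a line at the mean of 3. Each panel spans 1 log2 unit around its own mean, and only for Angpt2 and Casr do the points of the 2 genotypes stand apart.

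Promoters are shown for Tie1 and Ptger4, whose Pearson r over the 6 arrays was the second highest of all pairs of the 10 genes without passing the test, and for Tek, the relative of Tie1. Of the 10 genes, 7 were matched by symbol to RefSeq promoter windows of build GRCm38.p6, which run from 250 bases before to 50 bases after a transcription start. Capitals mark each GGAA or its reverse complement TTCC, the core letters bound by ETS factors, a family known for driving endothelial genes. The windows lie at chr4:118489800-118490099 on the minus strand for Tie1, at chr15:5244138-5244437 on the minus strand for Ptger4 and at chr4:94739039-94739338 on the plus strand for Tek.
Tie1: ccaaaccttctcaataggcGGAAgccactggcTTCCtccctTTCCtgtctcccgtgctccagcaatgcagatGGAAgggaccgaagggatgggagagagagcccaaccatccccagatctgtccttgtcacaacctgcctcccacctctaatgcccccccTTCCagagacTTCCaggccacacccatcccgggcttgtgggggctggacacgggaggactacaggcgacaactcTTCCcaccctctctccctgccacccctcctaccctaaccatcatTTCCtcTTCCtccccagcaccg
Ptger4: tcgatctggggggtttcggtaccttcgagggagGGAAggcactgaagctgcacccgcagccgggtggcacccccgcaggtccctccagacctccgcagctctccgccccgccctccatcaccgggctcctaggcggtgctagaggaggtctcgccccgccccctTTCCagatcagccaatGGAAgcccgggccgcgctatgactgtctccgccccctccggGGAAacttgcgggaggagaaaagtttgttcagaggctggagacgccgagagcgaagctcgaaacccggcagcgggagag
Tek: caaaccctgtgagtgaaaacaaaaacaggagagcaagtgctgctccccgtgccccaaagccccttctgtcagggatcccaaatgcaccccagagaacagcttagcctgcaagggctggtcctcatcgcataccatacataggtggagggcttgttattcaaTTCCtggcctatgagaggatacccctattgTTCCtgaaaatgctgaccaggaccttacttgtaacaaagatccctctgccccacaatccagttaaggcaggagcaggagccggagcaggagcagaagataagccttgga
Counting both strands, GGAA occurred 9 times in the Tie1 window, 4 times in that of Ptger4 and 2 times in that of Tek. Among 32851 promoter windows of this length, 96.0% hold at least 1, and 1.59%, 46.3% and 84.6% hold at least 9, 4 and 2. The letters CACCC, which KLF and SP factors bind, occurred 3 times on both strands in the Tie1 and Ptger4 windows and 1 time in that of Tek, where 57.5% of all windows have at least 1 and 9.35% at least 3. The cyclic AMP response element TGACGTCA was in none of the 3 windows and in 1.79% of all. No match overlapped a match of another motif. These are descriptions of letters and say nothing of binding.

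The chemokine receptor Cxcr4, which couples CXCL12 to Gi proteins and retains stem cells in marrow, was 10.26, 10.32 and 10.54 in Lxn-/- pools, against 10.53, 10.38 and 10.64 in WT pools. The highest Lxn-/- pool lay between the middle and the highest WT pool, so the genotypes overlapped. Means were 10.38 ± 0.14 in Lxn-/- and 10.51 ± 0.13 in WT (SD, n = 3 each), a difference of -0.14 with a 95% confidence interval of -0.37 to 0.090. As a ratio that is 0.908, with an interval of 0.775 to 1.06. Left-out arrays moved the difference between -0.22 and -0.078, always below 0.

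B cells carry CXCR4 themselves. Of 17 measured B cell markers 16 were lower in Lxn-/- and 0 passed the test, with a median of -0.35 and an unadjusted p under 0.05 in limma for 6 of them, all lower, where the share of all named probe sets on the lower side was 2.43%. That median was -0.18 without WT replicate 3 and -0.13 with array weights. Their mean level ran from 8.91 to 9.05 in Lxn-/- and from 9.03 to 9.49 in WT, 14 of the 17 were above the odorant receptor level, and Fcer2a, Rag2 and Cr2 were not. Their part in the Cxcr4 value was not tested.

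Ackr3, a scavenging receptor that removes CXCL12, stayed under the odorant receptor level on every array. It was 6.53, 6.58 and 6.61 in Lxn-/- pools, against 6.90, 6.58 and 6.80 in WT pools. The 3 Lxn-/- pools lay close together, and the lowest WT pool lay among them. Its difference of -0.19 (SE 0.09, 95% confidence interval -0.40 to 0.021) belongs to a signal for which detection is in doubt.

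Among 30 measured genes of CXCL12 and CXCR4 signalling, 18 were higher and 12 lower in Lxn-/-, none passed, and the median was 0.017. At an unadjusted p under 0.05 in limma stood 3 of the 30, where all named probe sets had a share of 3.9%. These 3 were on the higher side, where that share was 1.47%, and are known for damping receptor signals. Rgs1, a GTPase activator that shortens Gi signals, was 12.10, 11.95 and 12.20 in Lxn-/- pools and 12.01, 11.65 and 11.40 in WT pools, a difference of 0.40 (SE 0.15). Rgs2, of the same family, was 11.87, 11.66 and 12.04 in Lxn-/- pools and 11.63, 11.60 and 11.18 in WT pools, a difference of 0.39 (SE 0.14). Grk3, a kinase that desensitises CXCR4, was 10.13, 9.98 and 10.09 in Lxn-/- pools and 9.94, 9.93 and 9.56 in WT pools, a difference of 0.26 (SE 0.11). The other Rgs genes of the list, Rgs14, Rgs16, Rgs18 and Rgs19, differed by 0.030, -0.027, 0.053 and -0.047. The arrestin genes Arrb1 and Arrb2 differed by 0.021 and 0.090. For Rgs1, Rgs2 and Grk3 WT replicate 3 was the lowest array.

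Immediate early genes, which cells induce within minutes of handling, were also low in WT replicate 3. Their mean over 21 genes was 11.15, 11.10 and 11.35 in Lxn-/- pools and 11.16, 10.91 and 10.58 in WT pools. Of the 21 genes 19 were higher in Lxn-/- and 0 passed, with a median of 0.29 that was 0.14 without WT replicate 3. At an unadjusted p under 0.05 in limma stood 6 of them, all higher, where all named probe sets had a share of 1.47% on the higher side. The genotypes did not overlap for 4 of them (19.0%), beside 8.98% of all named probe sets. All 21 were above the odorant receptor level, and their part in the Rgs1, Rgs2 and Grk3 values was not tested. Of the other receptor kinase genes measured in the list, Grk5 differed by 0.061 and Grk6 by 0.010. Gnai2, the main Gi subunit of blood cells, differed by -0.088.

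The ligand Cxcl12, a stromal product, was 7.80, 9.13 and 7.18 in Lxn-/- pools and 7.62, 7.34 and 8.74 in WT pools. One pool of each genotype was high, and the difference of 0.14 had an SE of 0.51. Stromal markers had mean levels of 7.26 to 7.77 in Lxn-/- and 7.32 to 7.83 in WT, highest in the same 2 pools. Of 16 stromal markers, among them Cxcl12 itself, 8 were above the odorant receptor level, and Lepr, Pdgfra, Kitl, Adipoq, Sp7, Nes, Dcn and Lum were not. The part of such cells in the Cxcl12 value was not tested.

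The angiopoietin receptor Tek (TIE2), a tyrosine kinase of stem cells and endothelium, was 9.47, 9.80 and 9.72 in Lxn-/- pools, against 9.46, 9.71 and 9.87 in WT pools. Replicate 1 of each genotype was low and the remaining 4 arrays were high. Means were 9.67 ± 0.17 in Lxn-/- and 9.68 ± 0.20 in WT (SD, n = 3 each), with a difference of -0.013 and a 95% confidence interval of -0.30 to 0.27. Its sign turned when single arrays were left out, over a range of -0.12 to 0.084.

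Tie1, a relative of TEK that acts as its partner on the cell surface, varied least of the 7 genes above the odorant receptor level, with 0.23 between its highest and lowest array. It was 10.57, 10.53 and 10.69 in Lxn-/- pools, against 10.53, 10.62 and 10.46 in WT pools. The genotypes overlapped, and the difference of 0.063 had a 95% confidence interval of -0.11 to 0.24, or 0.926-fold to 1.18-fold. It was 0.018 without Lxn-/- replicate 3, 0.10 without WT replicate 2, 0.018 with a common median and 0.0092 with array weights.

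Angpt1, the activating ligand of TEK, was 12.09, 12.02 and 12.29 in Lxn-/- pools, against 12.09, 12.14 and 12.09 in WT pools. The WT pools were nearly alike (SD 0.033). Of the Lxn-/- pools (SD 0.14), replicate 2 lay below the WT pools, replicate 3 above them and replicate 1 within their range. The difference was 0.029 with a 95% confidence interval of -0.16 to 0.22. It was -0.048 without Lxn-/- replicate 3, and it was also below 0, at -0.016, with arrays set to a common median.

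Angpt2, the context-dependent antagonist of ANGPT1 that endothelial cells release, had the widest difference of the 10 genes. It was 6.66, 6.84 and 6.77 in Lxn-/- pools, against 6.45, 6.51 and 6.36 in WT pools. Every Lxn-/- pool lay above every WT pool, and every array lay under the odorant receptor level of its own. Means were 6.75 ± 0.094 in Lxn-/- and 6.44 ± 0.072 in WT (SD, n = 3 each), a difference of 0.31 (SE 0.076, 95% confidence interval 0.14 to 0.49). The exact two-sided permutation p was 0.1, the smallest this design can give, and the adjusted p in limma was 0.993. With single arrays left out the difference ran from 0.27 to 0.36.

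**Figure D2:**
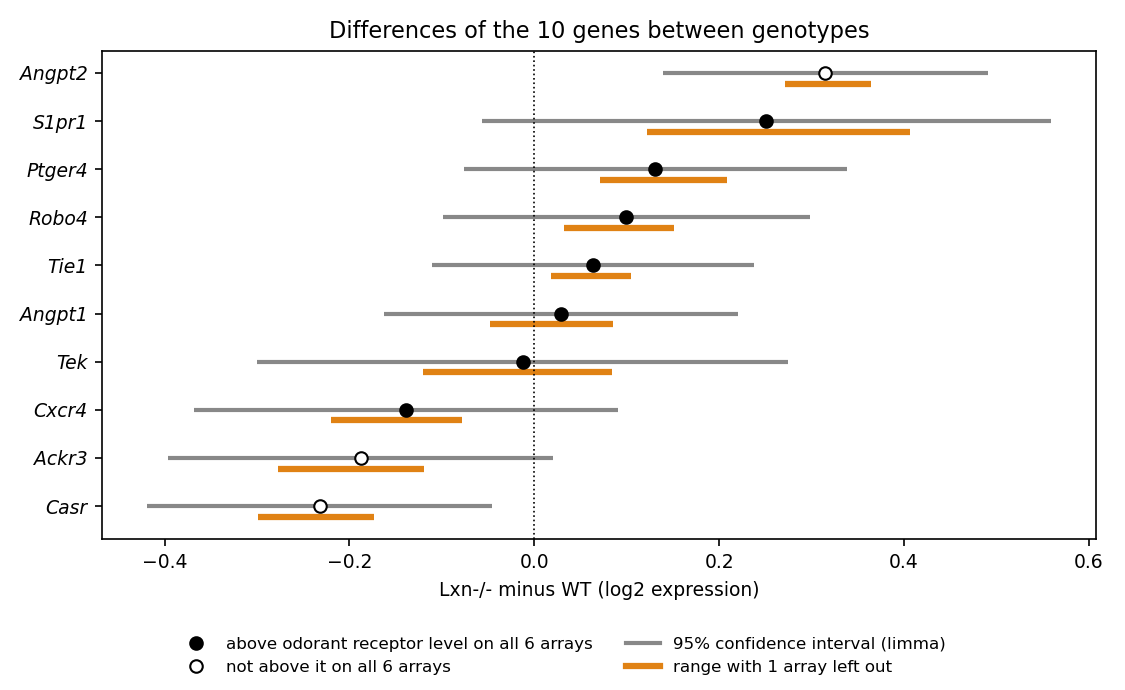
Difference in log2 expression, Lxn-/- minus WT, for each gene (points), with limma's 95% confidence interval (grey) and the range when single arrays are left out (orange). Filled points mark the 7 genes above the odorant receptor level on all 6 arrays, all with intervals that include 0, and open points mark Angpt2, Ackr3 and Casr.

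Among 21 measured genes of angiopoietin and Tie signalling, 12 were higher and 9 lower, none passed, and 0 had an unadjusted p under 0.05 in limma. The median was 0.0044. The 3 of lowest p were Foxo1, a transcription factor that AKT restrains downstream of TEK, at -0.16 (SE 0.089), the adaptor Grb7 at -0.14 (SE 0.093) and the adaptor Nck1 at 0.093 (SE 0.062). Angpt4, a further ligand of TEK, differed by -0.098, and Dok2, an adaptor that docks on active TEK, by 0.056. Ptprb, the endothelial phosphatase that removes phosphate from TEK, was 8.12, 8.30 and 7.35 in Lxn-/- pools and 8.06, 7.23 and 8.59 in WT pools, with a difference of -0.035 and a span of 1.36 over the 6 arrays.

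Tek, Tie1 and Robo4 are also endothelial markers, and 21 of 23 endothelial markers were above the odorant receptor level, Sox17 and Clec14a excepted. The mean of the list was 8.91 to 9.14 in Lxn-/- pools and 8.90 to 9.33 in WT pools. Cdh5, the endothelial cadherin, was 9.09, 9.20 and 7.54 in Lxn-/- pools and 8.87, 8.09 and 9.70 in WT pools, a span of 2.16. Stab2, a scavenger receptor of sinusoidal endothelium, was 9.83, 10.18 and 8.74 in Lxn-/- pools and 9.74, 9.22 and 10.15 in WT pools. Both were lowest in Lxn-/- replicate 3 and next lowest in WT replicate 2, as were Kdr and Plvap. The mean of the whole list was lowest in WT replicate 2, at 8.90, and next lowest in Lxn-/- replicate 3, at 8.91. Tie1 and Robo4 were each highest in Lxn-/- replicate 3, and over all 6 arrays Tek, Tie1 and Robo4 spanned 0.40, 0.23 and 0.32. The part of endothelial cells in the Tek, Tie1 and Robo4 values was not tested.

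**Figure D3:**
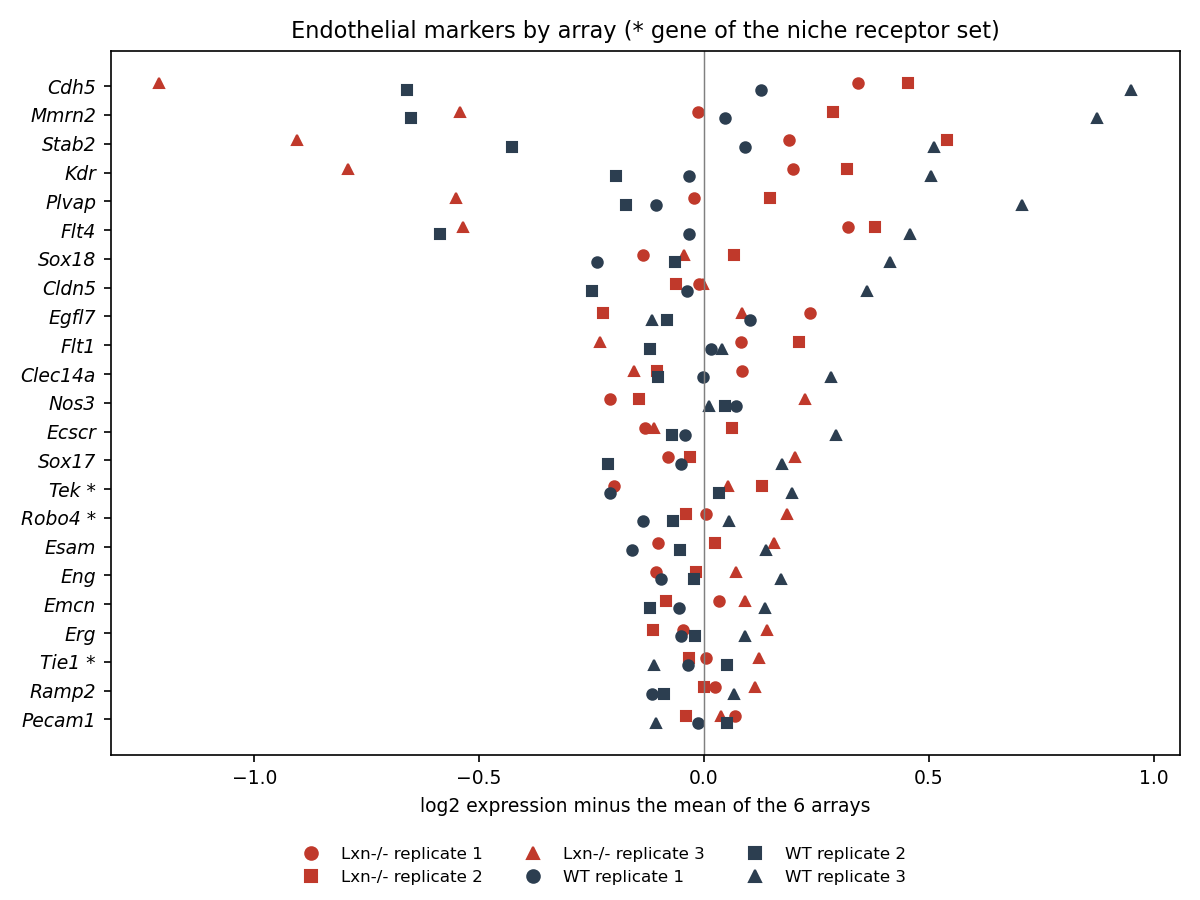
Deviation of each of 23 endothelial markers from its mean over 6 arrays, on the log2 scale, ordered from the widest span at the top, with Lxn-/- pools in red above WT pools in dark blue. Cdh5 spans 2.16 and Stab2 1.45, while Tek, Robo4 and Tie1 (asterisks) stay within 0.40, 0.32 and 0.23.

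Robo4, a guidance receptor that helps anchor stem cells and acts with CXCR4 in homing, was 10.25, 10.20 and 10.43 in Lxn-/- pools, against 10.11, 10.17 and 10.30 in WT pools. The highest WT pool exceeded both lower Lxn-/- pools, so the genotypes overlapped. Means were 10.29 ± 0.12 in Lxn-/- and 10.19 ± 0.096 in WT (SD, n = 3 each), a difference of 0.099 with a 95% confidence interval of -0.099 to 0.30. It was 0.032 without Lxn-/- replicate 3, 0.15 without WT replicate 3 and 0.054 with a common median.

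Of 20 measured genes of the Slit and Robo pathway 9 were higher and 11 lower, none passed, and the median was -0.010. Robo1, the broadly expressed receptor of SLIT proteins, was 7.40, 7.49 and 7.73 in Lxn-/- pools and 7.79, 7.73 and 7.84 in WT pools, a difference of -0.25 (SE 0.095). Its Lxn-/- pools all lay below its WT pools, although the top Lxn-/- pool nearly met them. Sdc1, a heparan sulfate proteoglycan that carries SLIT and marks plasma cells, was 9.89, 9.83 and 9.94 in Lxn-/- pools and 10.49, 10.25 and 10.34 in WT pools. Its genotypes did not overlap, and the difference was -0.48 (SE 0.08), beside the B cell marker median of -0.35. The part of B cells or plasma cells in the Sdc1 value was not tested. Srgap2, a GTPase activator recruited by ROBO1, was the next by p, at 0.16 (SE 0.096). The ligands Slit1, Slit2 and Slit3 differed by -0.057, 0.063 and -0.014, with means over 6 arrays of 7.09, 6.99 and 7.15.

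S1pr1, the sphingosine 1-phosphate receptor that guides egress, was 9.55, 9.19 and 9.75 in Lxn-/- pools, against 9.25, 9.29 and 9.20 in WT pools. Lxn-/- replicates 1 and 3 lay above all WT pools and Lxn-/- replicate 2 lay below them. Means were 9.50 ± 0.29 in Lxn-/- and 9.25 ± 0.047 in WT (SD, n = 3 each), a difference of 0.25 with a 95% confidence interval of -0.057 to 0.56. It was 0.12 without Lxn-/- replicate 3 and 0.41 without Lxn-/- replicate 2.

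Within the sphingosine 1-phosphate pathway 10 of 22 genes were higher and 12 lower, none passed, and 0 had an unadjusted p under 0.05 in limma. The other receptors of the family differed by 0.12 (S1pr2, SE 0.073), 0.12 (S1pr3), 0.026 (S1pr4) and 0.072 (S1pr5). Cd69, a lymphocyte protein that pulls S1PR1 inside the cell and an early induced gene, was 11.17, 11.03 and 11.25 in Lxn-/- pools and 11.15, 10.94 and 10.48 in WT pools, a difference of 0.29 (SE 0.16). Sgpp2, a phosphatase of the lipid, was lowest by p, at -0.16 (SE 0.078). Sphk1, a kinase that makes the lipid, was 9.16, 9.82 and 8.76 in Lxn-/- pools and 9.30, 9.55 and 10.06 in WT pools, and Mfsd2b, its exporter in red cells, was 10.58, 11.29 and 10.15 in Lxn-/- pools and 10.49, 10.79 and 11.40 in WT pools. In each genotype both followed one order over the pools, and erythroid markers had the same order, with mean levels of 9.80, 10.23 and 9.51 in Lxn-/- and 9.88, 10.05 and 10.48 in WT. All 15 measured erythroid markers were above the odorant receptor level, and all were lower in Lxn-/- with 0 passing. Their median was -0.29, and it was -0.061 without Lxn-/- replicate 3 and -0.14 without WT replicate 3. Their part in the Sphk1 and Mfsd2b values was not tested.

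Ptger4, the prostaglandin E2 receptor EP4 that raises cyclic AMP, was 10.34, 10.15 and 10.43 in Lxn-/- pools, against 10.20, 10.25 and 10.08 in WT pools. Lxn-/- replicate 2 lay within the WT range, and the other two Lxn-/- pools lay above it. Means were 10.31 ± 0.14 in Lxn-/- and 10.18 ± 0.087 in WT (SD, n = 3 each), a difference of 0.13 with a 95% confidence interval of -0.076 to 0.34. It was 0.071 without Lxn-/- replicate 3 and 0.21 without Lxn-/- replicate 2.

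In the prostaglandin E2 pathway 11 of 18 genes were higher and 7 lower, none passed, and the median was 0.012. Ptger2, which encodes EP2, the other receptor that raises cyclic AMP, was 7.37, 7.47 and 7.34 in Lxn-/- pools and 7.19, 7.20 and 7.21 in WT pools. Its genotypes did not overlap, and the difference was 0.19 (SE 0.065, unadjusted p = 0.0189 and adjusted p = 0.993 in limma). Ptger1 and Ptger3, which encode EP1 and EP3, differed by -0.043 and 0.042. The phosphodiesterase gene Pde4b differed by 0.28 (SE 0.13) and the stress-induced factor gene Atf3 by 0.69 (SE 0.32).

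Ptgs2, the inducible cyclooxygenase that supplies prostaglandin E2, had the widest difference in that list. It was 10.71, 9.55 and 11.17 in Lxn-/- pools and 9.96, 9.92 and 8.79 in WT pools, a difference of 0.92 (SE 0.44). WT replicate 3 was the lowest array and Lxn-/- replicate 3 the highest, and Lxn-/- replicate 2 lay below 2 of the WT pools. Neutrophil markers had a mean level of 10.39, 9.52 and 11.05 in Lxn-/- pools and 10.73, 10.30 and 9.09 in WT pools, with all 19 above the odorant receptor level and 15 of 19 higher in Lxn-/- and 0 passing. Their median of 0.30 rests on single arrays: it was -0.17 without WT replicate 3, 0.0034 without Lxn-/- replicate 3, 0.65 without Lxn-/- replicate 2 and 0.14 with array weights. Lxn-/- replicate 3 was the highest array and WT replicate 3 the lowest there too. Within each genotype the mean of the immediate early genes, Atf3 among them, followed the same order of pools as Ptgs2 did. The part of either list in the Ptgs2, Ptger4 and S1pr1 values was not tested.

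The calcium-sensing receptor Casr, known for lodging stem cells near the calcium-rich bone surface, was 6.76, 6.66 and 6.91 in Lxn-/- pools, against 6.98, 6.98 and 7.06 in WT pools. Every Lxn-/- pool lay below every WT pool, and only 2 of the 6 arrays exceeded their own odorant receptor level. Means were 6.77 ± 0.13 in Lxn-/- and 7.01 ± 0.047 in WT (SD, n = 3 each), a difference of -0.23 (SE 0.081, 95% confidence interval -0.42 to -0.045). The exact two-sided permutation p was 0.1, the smallest possible here, and the adjusted p in limma was 0.993. Left-out arrays moved the difference between -0.30 and -0.17.

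Of 21 measured genes of the calcium sensing pathway 14 were higher and 7 lower, none passed, 0 had an unadjusted p under 0.05 in limma, and the median was 0.034. Ap2s1, an adaptor subunit that takes the receptor into the cell, differed by -0.13 (SE 0.094), Ramp1, a receptor chaperone, by 0.11 (SE 0.090) and the calmodulin gene Calm3 by -0.10 (SE 0.089). Gprc6a, the closest relative of Casr in the list, had a mean of 6.38, under the odorant receptor level, and differed by -0.0057.

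**Figure D4:**
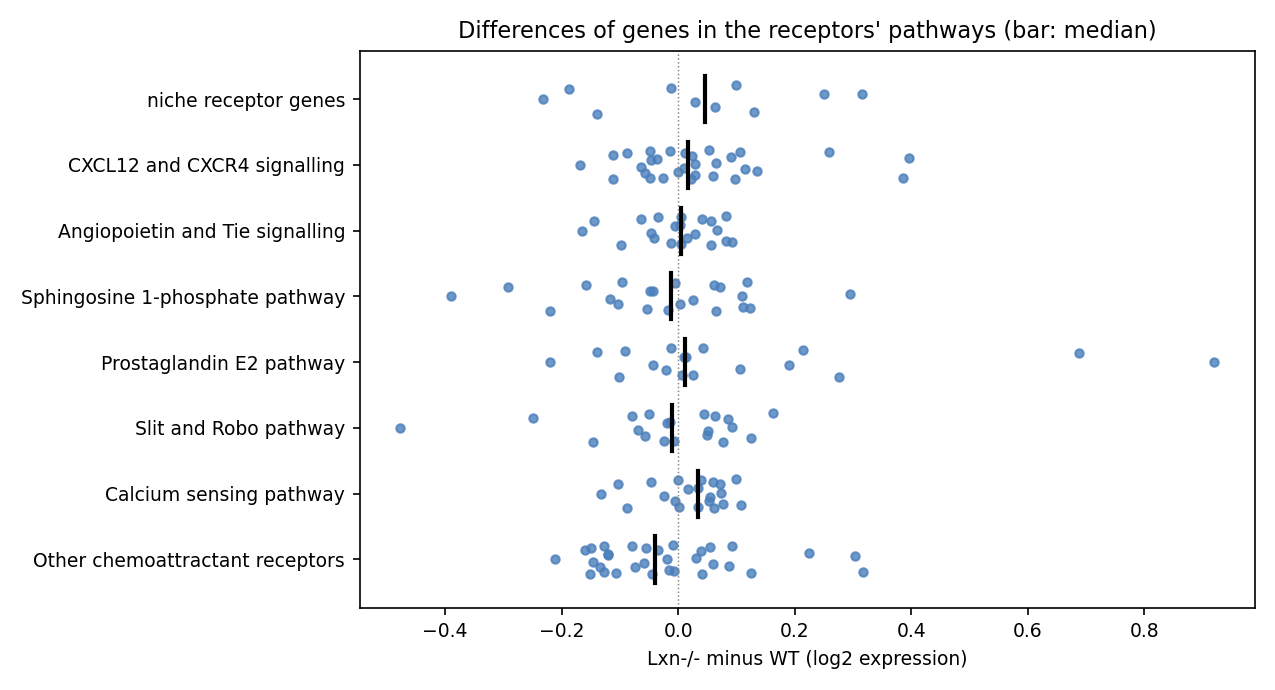
Difference in log2 expression, Lxn-/- minus WT, of each measured gene (points) in the 10 niche receptor genes and in 7 lists around them, with a bar at each median. Medians run from -0.040 for other chemoattractant receptors to 0.046 for the niche receptor genes, and the outlying points are Ptgs2 at 0.92, Atf3 at 0.69 and Sdc1 at -0.48.

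Spread between pools of one genotype was about that of other genes. The pooled SD of the 10 genes ran from 0.081 to 0.21 with a median of 0.11, beside a median of 0.10 over all genes. Among the 7 genes above the odorant receptor level, no 95% interval reached beyond 0.56 on the log2 scale, or 1.47-fold, and that bound belongs to S1pr1.

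No pair of the 10 genes was called for varying together over the arrays, the lowest adjusted p of the exact permutation test being 0.125. Of 45 pairs, S1pr1 and Ptger4 had the highest Pearson r, 0.948 over 6 arrays (Spearman's rho 0.943). The exact two-sided permutation p of that r was 0.00278, with an adjusted p of 0.125 over the 45 pairs. Without the 2 arrays farthest from the median of S1pr1, r was 0.869, and after subtracting each genotype's mean it was 0.922. Tie1 and Ptger4 had r = 0.901 and rho = 0.886 (exact permutation p = 0.0194, adjusted p = 0.391), and r was 0.527 without the 2 farthest arrays, so that relation rests in part on Lxn-/- replicate 3 and WT replicate 3. Tek and Tie1 had r = -0.168 and rho = -0.20 (exact permutation p = 0.732, adjusted p = 0.929), and without replicate 1 of both genotypes, the arrays farthest from the Tek median, r was -0.922 over the 4 that were left. With arrays set to a common median the r of Tek and Tie1 was 0.388, so its sign depends on the scaling. At an unadjusted p under 0.05 stood 4 pairs by the exact permutation test, and 0 after adjustment.

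Genes most like Cxcr4 and Tek were sought among 1318 genes above the odorant receptor level whose SD over the 6 arrays was at least 0.2. For Cxcr4 these were Ndn (r = 0.968), an imprinted growth suppressor of quiescent stem cells, Plb1 (0.967), Krtap5-2 (0.908) and Pdzk1ip1 (0.905). Ndn was 8.13, 8.27 and 8.52 in Lxn-/- pools and 8.55, 8.44 and 8.76 in WT pools. For Tek they were the quinone reductase gene Nqo2 (r = 0.996), the growth factor gene Bmp4 (0.992), Creg1 (0.991) and the mitochondrial carrier gene Sfxn2 (0.991). Bmp4 was 7.48, 8.46 and 8.20 in Lxn-/- pools and 7.53, 8.13 and 8.47 in WT pools, low in replicate 1 of each genotype as Tek was. With 6 arrays and so many genes searched, such values describe these arrays only.

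**Figure D5:**
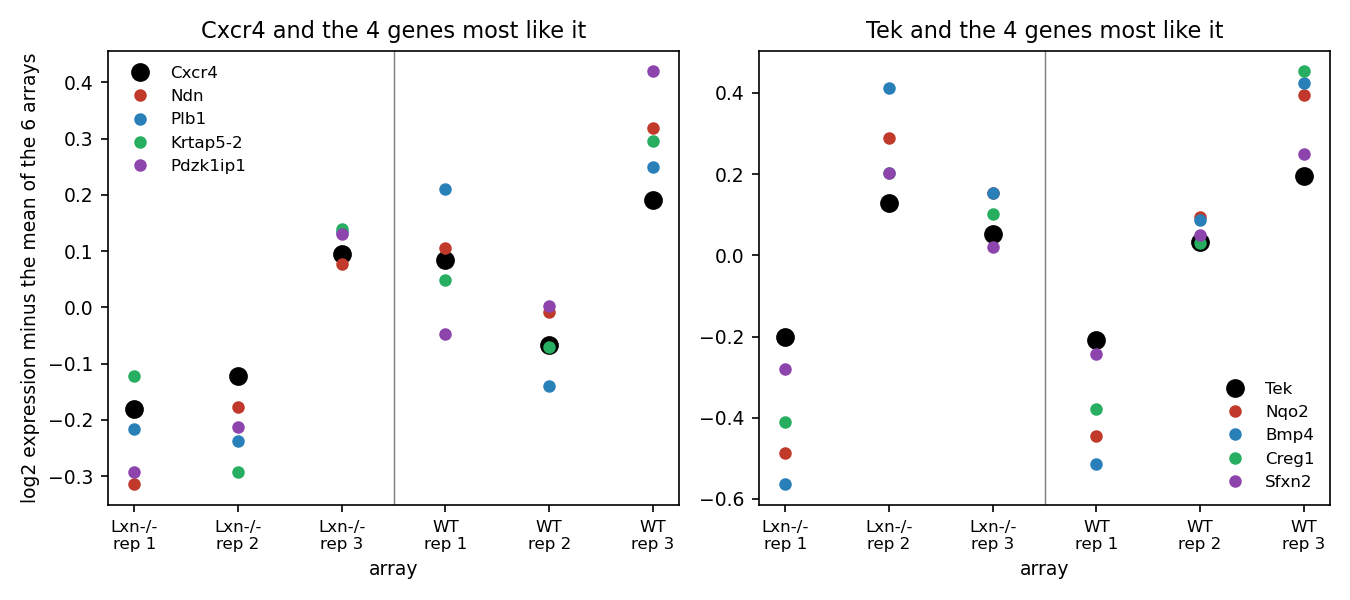
Deviation from the mean of 6 arrays on the log2 scale for Cxcr4 (left, black) and Tek (right, black) and the 4 genes with the highest r to each, by array, with Lxn-/- pools left of the line and WT pools right. Tek and its 4 genes are low in replicate 1 of both genotypes, and Cxcr4 and its 4 genes are highest in WT replicate 3.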

How the data were processed

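RNA of 3 Lxn-/- and 3 WT pools of LT-HSCs was hybridised to Affymetrix MoGene arrays, starting from 100 ng of total RNA per the labels' protocols. The deposited values are on the log2 scale and were normalized by the authors with RMA, as the series design says; the submitters' processing notes also list Partek 6.0. How background was handled and which probe set definitions were used is not stated in these sources. RMA draws the arrays towards one distribution and dampens dim signals, so small differences near background are the least certain. The deposited arrays were still not at one level, with medians from 7.77 in WT replicate 3 to 7.91 in Lxn-/- replicate 1.

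Of 35557 probe sets, GEO's platform annotation gave 21789 one symbol, 1621 several and 12147 none. Each gene was represented by its brightest probe set by the mean of 6 arrays. Genotypes were compared over 23410 named probe sets with limma 3.58.1 in R 4.3.3 (lmFit and eBayes, no covariates, two-sided, Benjamini-Hochberg, threshold 0.05). Errors are SD over pools or limma's SE. Exact permutation tests ran over the 6 arrays. The fit was checked on simulated data with independent noise for each probe set. Shifts that a pool shares across genes were not simulated, so the check does not cover them. The number of arrays limits the precision.

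Named genes were the 10 genes, Lxn, in each pathway list the passing genes or else the 3 of lowest p, the 4 genes most like Cxcr4 and Tek, and markers beside a result. Others named for their role, among them Cxcl12, Ptprb, Sphk1, Mfsd2b, Ptgs2, Cdh5 and Stab2, were chosen after their values were seen. The genes, lists and tests were chosen with earlier results of these data known. The other settings are quantile normalization, a common median, array weights, trend and robust variances, no dim probe sets, the mean of all probe sets, all probe sets of the table, a replicate block and each array left out.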

Additional observations from a re-analysis of the deposited data

How the results depend on the processing

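None of the 10 genes was called under any of 14 other settings, and their lowest adjusted p in limma was 0.610. Of 137 differences recomputed, 131 kept their direction and 6 did not, all of them for Tek or Angpt1. Angpt1 was -0.016 with a common median and -0.0089 with array weights. With single arrays left out Angpt1 ran from -0.048 to 0.085 and Tek from -0.12 to 0.084. The sources used here do not say whether replicate numbers pair the pools, and with 3 arrays per genotype the values cannot decide it. Deviations of same-numbered pools correlated at 0.372, -0.0719 and -0.0807, the first of them the highest of all pairs. Lxn-/- replicate 2 correlated best with WT replicate 3, at 0.362. With the replicate number as a block 0 probe sets were called in limma, the lowest adjusted p of the 10 genes was 0.911, and 1173 probe sets had an unadjusted p under 0.05. Across the other settings 0 probe sets were called in limma, and the 914 of an unadjusted p under 0.05 became 1807 with array weights, 1597 over the whole table, 526 without dim probe sets and 611 to 1556 with single arrays left out. The median of the 10 genes, 0.046, ran from -0.012 to 0.090 with single arrays left out. Angpt2, Ackr3 and Casr have no value without dim probe sets, and signal over background limits what can be said of them. List medians moved by more than the spread between pools in 1 of 238 cases, that of angiopoietin and Tie signalling, 0.0044, which was -0.041 with a common median. That spread is wide for the marker lists, so this is no sign that their medians are stable: with single arrays left out, neutrophil markers ran from -0.17 to 0.65, erythroid markers from -0.40 to -0.061, immediate early genes from 0.14 to 0.41, B cell markers from -0.42 to -0.18 and stem cell genes from -0.013 to 0.078. Every pathway list median lay near 0 and had the opposite sign under at least one of these settings.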

Other observations

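Other chemoattractant receptors, which steer mature blood cells, were lower in Lxn-/- for 21 and higher for 11 of 32 measured genes, with 0 passing the test and a median of -0.040. Cysltr2, a leukotriene receptor, was 9.10, 8.95 and 9.20 in Lxn-/- pools and 8.70, 8.85 and 8.75 in WT pools, a difference of 0.32 (SE 0.084) without overlap (adjusted p = 0.993 in limma). The atypical chemokine receptor gene Ackr2 differed by -0.13 (SE 0.076) and Ccrl2 by 0.22 (SE 0.14). Cxcr2, the neutrophil chemokine receptor, was 8.29, 7.78 and 9.35 in Lxn-/- pools and 8.41, 8.12 and 7.98 in WT pools.

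Genes of the stem cell list, which also holds Cd34 and Flt3, were higher in Lxn-/- for 15 of 19 and lower for 4, with 0 passing. Their median was 0.052, and it was -0.013 without Lxn-/- replicate 3, 0.017 without WT replicate 1 and 0.0071 with a common median. Medians were 0.083 for monocyte and macrophage markers, 0.020 for megakaryocyte markers and 0.022 for T and NK cell markers, with 0 passing in each. Medians of the lists set beside results in the text and not given there were -0.013 for endothelial and -0.025 for stromal genes, and -0.012 for the sphingosine 1-phosphate pathway.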
